A study of Mus musculus with 56 samples.

Results

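Skeletal muscle of Fmr1 knockout (KO) mice was compared with muscle of wild-type (WT) mice by RNA sequencing, in 3 libraries per genotype, 6 of the 56 samples of a study that also profiled 3 brain regions, liver, testis and a neuroblastoma cell line. The members were chosen by their labels, which give tissue and genotype. The labels give no age, sex, strain, Fmr1 allele or named muscle, and do not say whether the replicates are separate animals, so the p-values measure only the spread between these libraries, which may be technical. RNA came from powdered whole tissue. The muscle tables hold gene counts and junction reads for 5 kinds of alternative splicing event.

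Fmr1 encodes FMRP, an RNA-binding protein that represses translation and stabilises or transports many mRNAs, and whose loss causes fragile X syndrome. Its paralogs are Fxr1, which is abundant in striated muscle, and Fxr2. Muscle tissue is mostly the RNA of multinucleated myofibres, with smaller shares from fibroblast-like cells that make the extracellular matrix, endothelial cells, macrophages, satellite cells, tendon and blood.

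The 6 libraries held 13934559 to 15386794 counts over 13074 genes, and 19.9% to 22.7% of the counts of a library fell on its 10 leading genes. Markers of myofibres summed to 121144 to 132565 TPM (a level per transcript length, scaled to a fixed library total) in all 6, with 0 of 8 called by edgeR (2 at an unadjusted p under 0.05, and 2 lower by DESeq2), and none of the T cell or B cell markers was among the genes in the table. Erythroid markers stood at 6654 TPM in WT 3 against 1035 to 2463 in the other 5 libraries, and the single keratinocyte marker tested stood at 28.1 TPM in WT 3 against 1.49 to 3.01.

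Fmr1 itself was read in every library. In CPM (counts scaled to a fixed library total, with factors from the trimmed mean of M-values), the WT libraries held 12, 17.6 and 14.2 and the KO libraries 8.06, 10.2 and 10.3. The genotypes did not overlap, with KO lower, and the log2 fold change was -0.61 ± 0.17 (SE, n = 3 and 3), with an adjusted p of 0.073 in edgeR's quasi-likelihood test, so the gene was not called at 0.05. Without WT 1 the adjusted p was 0.044, and DESeq2 gave 0.036. The authors' deposited table gives a log2 fold change of -0.62. Reads remained from this gene in the libraries labelled KO, and which part of the gene they came from was not analysed here. In liver of the same study Fmr1 fell by 1.61 ± 0.16 (adjusted p = 0.0031) and in testis by 1.95 ± 0.11 (adjusted p = 9.8e-19). The fall in muscle was smaller than that in testis by 1.32 ± 0.20 on the log2 scale (adjusted p = 0.0026 for the interaction), while the difference from liver, 1.02 ± 0.23, did not pass (adjusted p = 0.072). Fxr2 was at 161, 162 and 137 CPM in WT and 122, 131 and 108 in KO, again without overlap, with a log2 fold change of -0.35 ± 0.11 (adjusted p = 0.094). Fxr1 was at 546, 525 and 404 CPM in WT and 394, 436 and 399 in KO, where the ranges overlapped (-0.26 ± 0.13, adjusted p = 0.24). None of the 8 genes of FMRP and its partners was called by edgeR (2 at an unadjusted p under 0.05, as were 3281 of all 12688 genes). By DESeq2 the only call was Fmr1. On chromosome X, 66 genes within 10 Mb of Fmr1 were tested and 5 were called (7.58%, against 3.26% of the chromosome and 4.04% of all genes): Bgn, Flna, Opn1mw and Zfp185 were higher in KO and Fundc2 was lower.

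Across 12688 genes tested, 512 (4.04%) were called at an adjusted p under 0.05, with KO above WT in 381 (3.0%) and below it in 131 (1.03%). An unadjusted p under 0.05 was held by 3281 of the 12688. The median size of a called rise was 0.82 and the median called fall -0.66 on the log2 scale, and 123 rises and 41 falls reached a log2 fold change of 1. Rises were 74.4% of the calls with this scaling and 92.3% with library totals alone, which moved the median of all genes from -0.0026 to 0.15, and 60.2% with DESeq2, which called 659 rises and 436 falls. The count rests on the KO libraries. Without KO 3 the fit called 11 rises (0.0861%) and 7 falls (0.0548%), without KO 1 25 (0.196%) and 12 (0.0939%), and without KO 2 131 (1.02%) and 26 (0.203%), whereas leaving out 1 WT library gave between 237 and 408 rises and between 112 and 156 falls. All 512 called genes had the same sign in the authors' deposited table, and 507 of them had a deposited adjusted p under 0.05. That table calls more genes at this threshold, 609 higher and 470 lower. Its fold changes accompany the same counts, so the shared signs are not independent support.

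**Figure D1:**
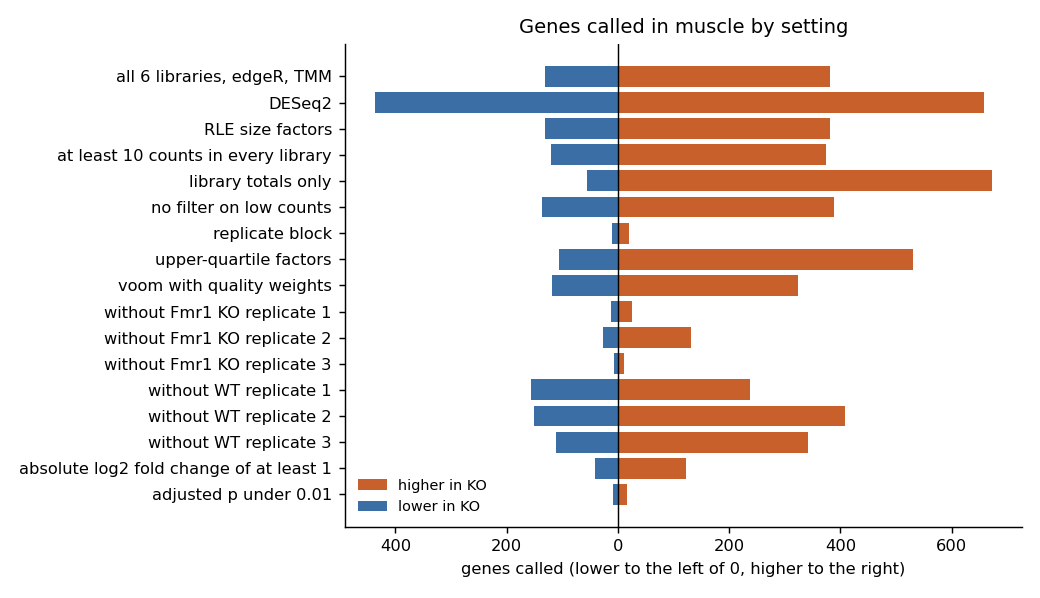
Genes called in muscle at an adjusted p under 0.05 (the last setting uses 0.01) under each setting, with genes higher in KO to the right of 0 and genes lower in KO to the left. All 6 libraries give 381 and 131; leaving out KO 3 leaves 11 and 7, and leaving out WT 1 leaves 237 and 156.

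A set of 17 genes (0.134% of those tested) was called in the fit of 6 libraries and in each of the 6 fits without 1 library, 10 of them higher and 7 lower in KO. Plac9b, which encodes a small secreted protein, was at 9.33, 10.3 and 12.2 CPM in WT and 60.5, 57.8 and 55.2 in KO. Unc5a, a netrin receptor, was at 4.16, 4.28 and 4.29 CPM in WT and 20.1, 22 and 18.9 in KO. Sox18, a transcription factor of endothelial cells, was at 5.39, 3.60 and 6.62 CPM in WT and 29.1, 26.0 and 30.2 in KO. In each of these genes every KO library exceeded every WT library, with log2 fold changes of 2.45 ± 0.12 for Plac9b (adjusted p = 2.2e-05), 2.26 ± 0.13 for Unc5a (adjusted p = 8.1e-05) and 2.45 ± 0.19 for Sox18 (adjusted p = 0.00078). Lfng, a glycosyltransferase that modifies Notch receptors, rose from 2.08, 1.5 and 1.53 CPM to 10.6, 9.15 and 12.3 (log2 fold change 2.64 ± 0.21). Ptgir, the prostacyclin receptor, rose from 1.22, 0.751 and 0.945 CPM to 5.44, 5.53 and 5.29 (2.47 ± 0.25). Fv1, a retroviral restriction gene, rose from 1.22, 0.976 and 1.45 CPM to 4.85, 6.10 and 4.63 (2.08 ± 0.25). The other rises of this set were the complement genes C4b, C1qa and C1qb and the cartilage matrix gene Cilp.

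Among the falls, Eno1b was at 63.3, 58.1 and 35.2 CPM in WT and 0.590, 0.426 and 0.463 in KO, a log2 fold change of -6.70 ± 0.31 (adjusted p = 2.2e-05). Eno1b lies on chromosome 18 and is an enolase gene nearly identical to Eno1, so how reads were split between them is uncertain. Eno1, at 68.8, 61.2 and 87.7 CPM in WT and 108, 118 and 117 in KO, rose by 0.65 ± 0.13 (adjusted p = 0.033). AA465934 held 6.10, 3.30 and 4.65 CPM in WT and no read in any KO library. Against a floor of 3 counts per KO library its WT mean was at least 22-fold higher. Dynlt1b, a dynein light chain gene, was at 39.0, 38.7 and 41.1 CPM in WT and 18.2, 14.9 and 16.5 in KO (-1.26 ± 0.11, adjusted p = 0.0011). Its near copies Dynlt1a and Dynlt1f were not called (0.07 ± 0.28 and 0.06 ± 0.11), and reads of such copies may have been shared between them. Iqgap2, a scaffold protein of the cytoskeleton, was at 24.1, 21.3 and 17.0 CPM in WT and 5.70, 4.82 and 6.08 in KO (-1.91 ± 0.17, adjusted p = 0.0014). Bhlhe40, a repressor in the circadian clock, was at 234, 205 and 236 CPM in WT and 122, 110 and 118 in KO (-0.95 ± 0.10). Glrx, which reduces glutathionylated proteins, and Wdfy1 completed the 7, with log2 fold changes of -0.82 ± 0.09 and -1.06 ± 0.13. In all of these falls the lowest WT library stood above the highest KO library. Plac9b and C4b also have near-identical copies in the mouse genome, so their rises carry the same uncertainty of read assignment.

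**Figure D2:**
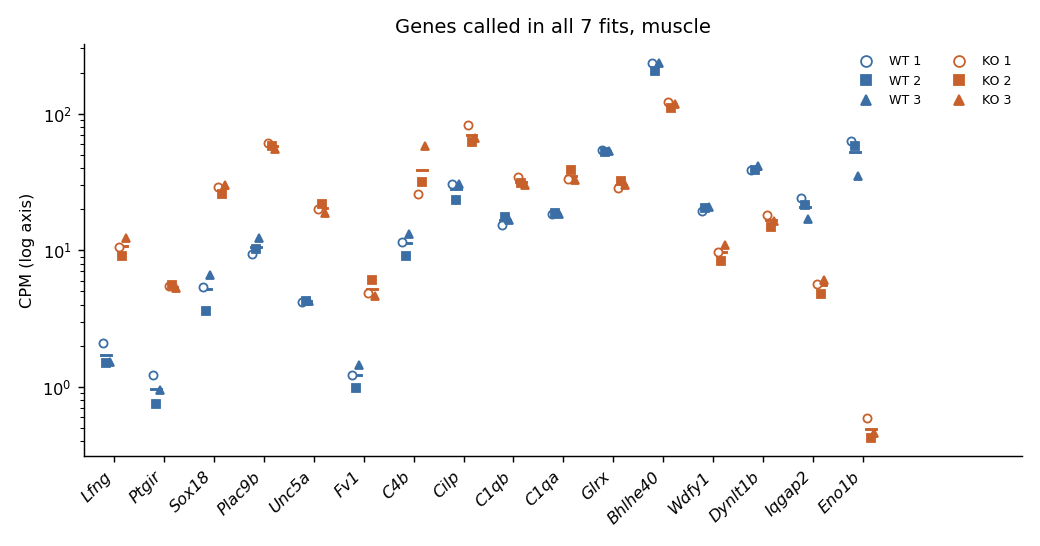
CPM (log axis) in each muscle library for 16 of the 17 genes called in all 7 fits; AA465934 is left out because its KO libraries are at 0. Points are libraries, bars are group means, and WT and KO points do not overlap in any gene, from Lfng (WT 1.5 to 2.08, KO 9.15 to 12.3) to Eno1b (WT 35.2 to 63.3, KO 0.426 to 0.590).

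Some larger changes depended on which libraries were kept. Rab6b, a Golgi trafficking GTPase, was at 0.0718, 1.28 and 1.163 CPM in WT and 11.9, 10.7 and 13.6 in KO (3.85 ± 0.44, adjusted p = 0.0061) and was called in 5 of the 6 fits without 1 library. Mybph, a myosin-binding protein, was at 37.0, 186 and 88.9 CPM in WT and 398, 392 and 377 in KO (1.90 ± 0.44, adjusted p = 0.047) and was called in 2 of those 6. Adora1, the adenosine A1 receptor, whose gene overlaps the Mybph locus on chromosome 1, rose from 1.08, 1.88 and 0.436 CPM to 5.97, 6.53 and 10.2 (2.74 ± 0.41, adjusted p = 0.016). In both, the KO libraries all exceeded the WT libraries. Cercam and A930016O22Rik belonged to the 12 largest called rises among genes with a mean of at least 5 CPM and no overlap. Cercam rose from 2.15 to 2.93 CPM in WT to 7.24 to 8.72 in KO (1.63 ± 0.19). A930016O22Rik rose from 2.40 to 7.68 CPM in WT to 18.6 to 21.9 in KO (1.77 ± 0.32). Reads of overlapping genes on opposite strands cannot be told apart where the counting did not use strand, which the sources used here do not state.

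Genes of the extracellular matrix were the group with the most rises. Of 30 tested, 22 (73.3%, against 3.0% of all genes) were higher in KO and none was called lower, and the median log2 fold change of the 30 was 0.74 against -0.0026 for all genes. The called members covered fibrillar collagens, collagen VI, basement membrane, elastic fibres and crosslinking enzymes. Col1a1, a chain of collagen I, was at 277, 424 and 386 CPM in WT and 1042, 631 and 811 in KO. Col6a3, a chain of collagen VI, which anchors myofibres to their surroundings, was at 87.3, 105 and 102 CPM in WT and 178, 186 and 199 in KO. Col12a1, a fibril-associated collagen, was at 8.83, 10.8 and 10.1 CPM in WT and 46.9, 24.3 and 35 in KO. All KO libraries exceeded all WT libraries in these 3, with log2 fold changes of 1.19 ± 0.21, 0.94 ± 0.11 and 1.84 ± 0.22 and adjusted p-values of 0.022, 0.0060 and 0.0079. Lox and Loxl1, which crosslink collagen and elastin, rose by 1.21 ± 0.19 and 0.71 ± 0.10. Postn, a matrix protein of fibroblasts, was at 13.5, 26.0 and 16.1 CPM in WT and 76.5, 39.1 and 54.3 in KO (1.61 ± 0.28, adjusted p = 0.022). Thbs1 was the only member with a value of the opposite sign, -1.59 with an adjusted p of 0.20. The number of matrix genes called higher was 0 without KO 3 (when 0.0861% of all genes were), 4 without KO 1 (0.196%) and 14 without KO 2 (1.02%). It was 21 without WT 1 (1.85%), 25 without WT 2 (3.18%) and 18 without WT 3 (2.67%). Without WT 1, 1 matrix gene was called lower, when 1.22% of all genes were. KO 1 was the highest library for Col1a1, Col12a1, Lox and Postn.

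Markers of fibroblast-like and macrophage cells also lay higher in KO. Of 8 markers of fibro-adipogenic cells, 3 were called higher (37.5%, against 3.0% of all genes): Pdgfra, Col1a1 and Col3a1. The summed level of the 8 was 1410 to 2468 TPM in WT and 2823 to 3855 in KO. Dcn, Lum, Col1a1 and Col3a1 are in both this list and the matrix list, so the results of these lists are not independent. Pdgfra, the receptor that marks these cells, was at 29.9, 42.9 and 33.0 CPM in WT and 60.9, 61.9 and 69.6 in KO (0.86 ± 0.14, adjusted p = 0.018). Of 7 macrophage markers tested, 6 were called higher (85.7%, against 3.0% of all genes), and their summed level was 103 to 119 TPM in WT and 234 to 247 in KO. Cd163, a scavenger receptor, was at 9.91, 13.9 and 10.7 CPM in WT and 23.7, 20.7 and 27.2 in KO (1.06 ± 0.16, adjusted p = 0.016). C1qa, the complement component made by macrophages, was at 18.5, 18.7 and 18.5 CPM in WT and 33.3, 38.7 and 32.6 in KO (0.91 ± 0.10, adjusted p = 0.0060). The groups did not overlap in these genes, nor in either summed level. Without KO 1, KO 2 and KO 3 the macrophage markers called higher were 2, 3 and 2, and the fibro-adipogenic markers 0, 2 and 0, when 0.196%, 1.02% and 0.0861% of all genes were. Of 6 tendon cell markers 1 was called higher (16.7%, against 3.0% of all genes), Comp, with a summed level of 140 to 270 TPM in WT and 289 to 694 in KO. Of 7 satellite cell markers 1 was called higher (14.3%), and their summed level was 29.7 to 36.25 TPM in WT and 42.2 to 50.9 in KO. Smooth muscle and pericyte markers summed to 197 to 314 TPM in WT and 355 to 425 in KO. Of these, 0 of 7 were called by edgeR or DESeq2, with 4 at an unadjusted p under 0.05. White adipocyte markers had a median log2 fold change of 1.155 with 0 of 8 called by edgeR (5 at an unadjusted p under 0.05, and 2 higher by DESeq2). Of all 12688 genes, 3281 had an unadjusted p under 0.05. In 4 of the 8 KO was higher without overlap, against 16.3% of all genes. The summed levels of the 8 overlapped, at 3069 to 4194 TPM in WT and 3559 to 4656 in KO. In bulk tissue, more cells of a type and more RNA per cell cannot be told apart, and the part of these cell types in the matrix result was not tested.

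**Figure D3:**
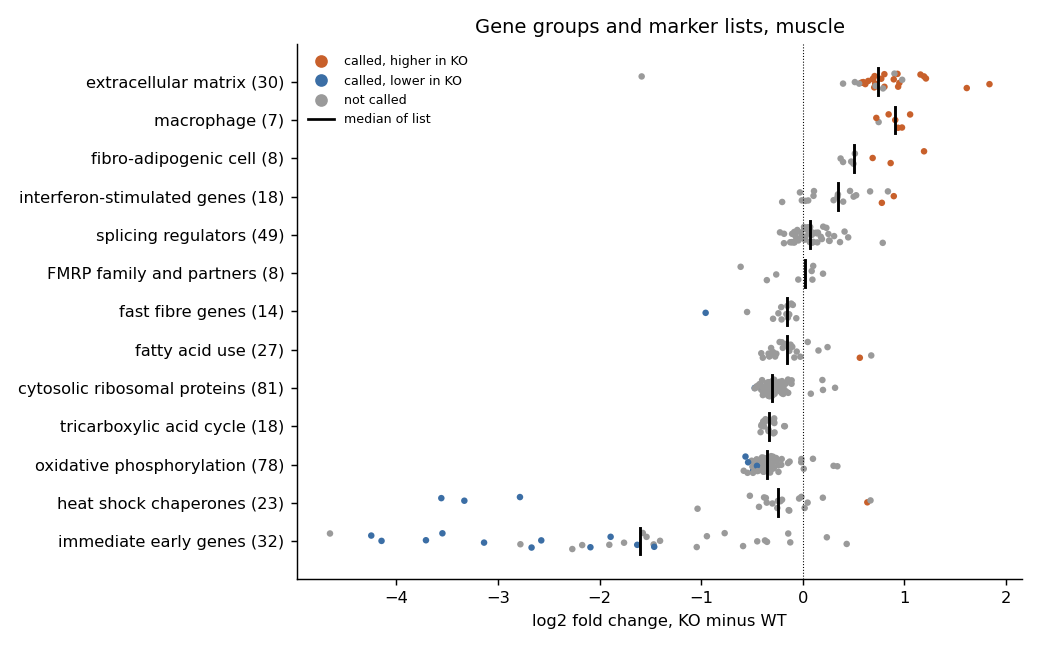
Log2 fold change (KO minus WT) of each tested member of 13 gene groups and marker lists, with the number tested in brackets and a black bar at each median. Matrix genes lie at a median of 0.74 with 22 of 30 called higher, and immediate early genes at -1.60 with 11 of 32 called lower; vertical scatter within a row has no meaning.

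Immediate early genes, which are transcribed within minutes of a stimulus, moved the other way. Of 32 tested, 11 (34.4%, against 1.03% of all genes) were lower in KO and none was higher, with a median log2 fold change of -1.60, and all but 2 had negative values. Egr1, a zinc finger transcription factor, was at 76.3, 295 and 379 CPM in WT and 18, 8.30 and 13.1 in KO (-4.25 ± 0.55, adjusted p = 0.010). Fos, a subunit of AP-1, was at 46.7, 389 and 331 CPM in WT and 27.0, 8.73 and 7.40 in KO (-4.15 ± 0.76, adjusted p = 0.026). Egr3 was at 10.9, 53.4 and 40.7 CPM in WT and 3.67, 1.49 and 2.78 in KO (-3.71 ± 0.56, adjusted p = 0.016). In each, WT 1 stood well below WT 2 and WT 3 and still above every KO library. Cyr61, a secreted matricellular protein, fell from 67.3, 257 and 311 CPM to 25.8, 9.37 and 19.1 (-3.55 ± 0.54). Arc, known from synapses, fell from 3.59, 11.6 and 21.6 CPM to 2.29, 2.2 and 1.65 (-2.57 ± 0.55). Csrnp1, Klf2, Ier2, Egr2, Gadd45b and Socs3 were the other calls, at -3.14 to -1.46. Nr4a1, at 238, 955 and 1074 CPM in WT and 525, 320 and 334 in KO, did not pass (-0.94 ± 0.45, adjusted p = 0.22). Its WT 1 value lay below all 3 KO libraries.

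WT 1 was the lowest WT library in 32 of 32 immediate early genes, against 35.3% of all genes. Without WT 1, 26 of the 32 were called lower, when 1.22% of all genes were. Without WT 2 (1.18% of all genes) or WT 3 (0.873%) the number was 6. It was 1 without KO 1 (0.0939%), 3 without KO 2 (0.203%) and 0 without KO 3 (0.0548%). Library totals alone gave 7 and DESeq2 12. Other genes of rapid response varied in the same manner. Apold1, an early gene of endothelial cells, was at 28.4, 191 and 187 CPM in WT and 12.5, 5.18 and 5.09 in KO (-4.15 ± 0.67, adjusted p = 0.019). Cxcl1, a chemokine that attracts neutrophils, was at 0.862, 17.0 and 29.4 CPM in WT and 0.459, 0.639 and 0.264 in KO (-5.10 ± 1.08, adjusted p = 0.037), and was called in 1 of the 6 fits without 1 library. In both, WT 2 and WT 3 were far above the other 4 libraries.

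Among 23 heat shock chaperones, 3 were lower (13%, against 1.03% of all genes: Hspa1b, Hspa1a and Dnajb1) and Hspa4l was higher (4.35%, against 3.0%), and the median of the 23 was -0.25. The number called lower was 5 without WT 1 (1.22% of all genes) and 1 without WT 2 (1.18%). It was 0 without WT 3 and without any 1 KO library. Hspa1b, an inducible Hsp70, was at 63.6, 512 and 623 CPM in WT and 55.6, 23.1 and 22.9 in KO (-3.56 ± 0.72, adjusted p = 0.033). Dnajb1, an Hsp40 that works with Hsp70, was at 24.6, 151 and 196 CPM in WT and 23.8, 13.1 and 17.0 in KO (-2.78 ± 0.60, adjusted p = 0.039). The gap between WT 1 and the highest KO library was small in both, and Hspa1b was called in 2 and Dnajb1 in 1 of the 6 fits without 1 library. Hspa1a and Hspa1b are near-identical, so their values are uncertain apart. The constitutive Hspa8, at 1604 to 1983 CPM in all libraries, was not called (-0.13 ± 0.11).

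**Figure D4:**
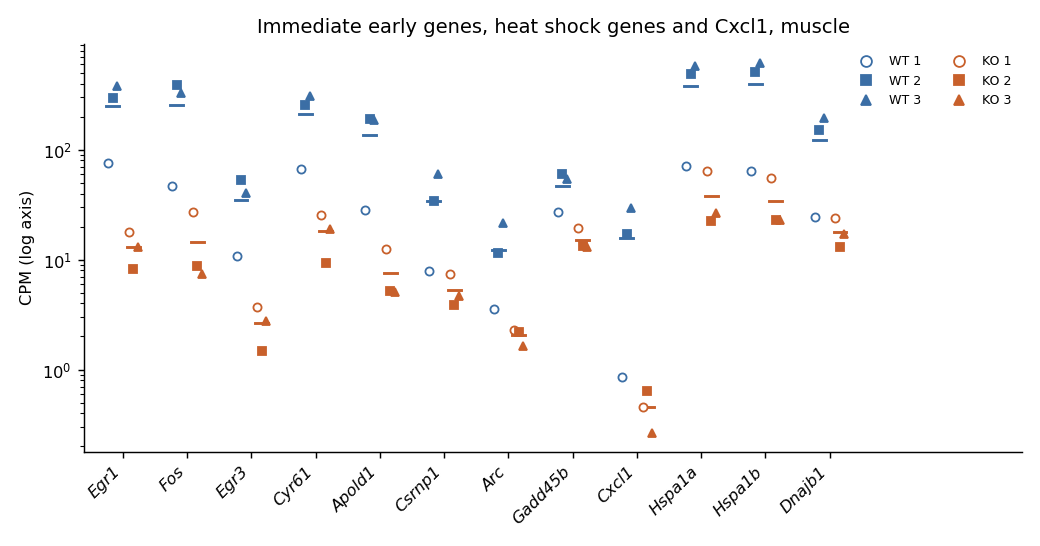
CPM (log axis) of immediate early genes, heat shock genes and Cxcl1 in each muscle library, with bars at group means. The open circle of WT 1 lies below WT 2 and WT 3 in every gene shown (Fos 46.7 against 389 and 331), and the KO libraries lie lowest.

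The promoters of Fos and Hspa1b are shown because these genes had large falls among the immediate early genes and the heat shock chaperones. The windows are the 250 bases before the annotated start, from RefSeq on GRCm38.p6, read in the direction of transcription. Capitals mark TGACGT, the core of a cAMP response element, in Fos (chr12:85473640-85473889, plus strand) and GAANNTTC, a pair of inverted heat shock element units, in Hspa1b (chr17:34959239-34959488, minus strand).
Fos: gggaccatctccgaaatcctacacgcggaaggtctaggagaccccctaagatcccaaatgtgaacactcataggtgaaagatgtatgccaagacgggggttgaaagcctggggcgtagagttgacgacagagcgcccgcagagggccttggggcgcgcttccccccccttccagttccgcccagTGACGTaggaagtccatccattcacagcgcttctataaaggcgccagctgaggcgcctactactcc
Hspa1b: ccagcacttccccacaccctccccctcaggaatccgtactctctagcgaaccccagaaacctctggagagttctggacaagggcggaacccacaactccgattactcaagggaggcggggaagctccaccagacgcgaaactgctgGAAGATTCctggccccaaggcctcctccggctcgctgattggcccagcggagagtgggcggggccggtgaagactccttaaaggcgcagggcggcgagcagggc
The match begins 66 bases before the start in Fos and 104 in Hspa1b. Motifs were searched on both strands of 250-base windows. TGACGT was present for 3 of the 7 called immediate early genes with a promoter entry (Fos, Egr2 and Cyr61, listed there as Ccn1), 5 of 18 that were not called, and 7.29% of all genes. GAANNTTC was present for 2 of 4 called heat shock genes (Hspa1a and Hspa1b), 5 of 15 not called, and 7.73% of all genes. The CArG box, the site of serum response factor, was present for 1 of the 7 and for 1.62% of all genes. Uncalled genes of the same families thus held the letters too. The windows of Hspa1a and Hspa1b were 98.8% identical.

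Genes of mitochondrial energy production and of the ribosome lay slightly lower in KO as groups, with few members passing the test. Of 78 genes of oxidative phosphorylation, 5 were called lower (6.41%, against 1.03% of all genes) and none higher, 74 had negative values, and the median was -0.36. In 59 of the 78 the KO libraries were all below the WT libraries, against 15.1% of all genes. Ndufb5, a subunit of complex I, was at 396, 333 and 367 CPM in WT and 277, 248 and 229 in KO (-0.54 ± 0.11, adjusted p = 0.037). Uqcrq, a subunit of complex III, was at 441, 346 and 418 CPM in WT and 297, 277 and 241 in KO (-0.56 ± 0.13, adjusted p = 0.043). The other calls were Ndufa12, Ndufs8 and Atp5g2, at -0.49 to -0.41. Of 81 cytosolic ribosomal protein genes 2 were called lower, among them Rpl30 (-0.47 ± 0.10), 77 had negative values, and 67 did not overlap. The 18 genes of the tricarboxylic acid cycle had negative values throughout, with a median of -0.34, 14 without overlap and none called by edgeR (14 at an unadjusted p under 0.05, as were 3281 of all 12688 genes). DESeq2 called 43, 28 and 10 members of these 3 groups lower. With library totals alone the medians were -0.20, -0.15 and -0.18 and no member was called. Without any 1 KO library, and without WT 1 or WT 3, none of these genes was called. Without WT 2, 10 genes of oxidative phosphorylation and 1 ribosomal protein gene were called lower, when 1.18% of all genes were.

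Few contractile genes were called, but most lay slightly lower in KO. Negative values were held by 14 of 14 fast fibre genes (median -0.16), 14 of 16 slow fibre genes (-0.31) and 21 of 22 genes of excitation-contraction coupling (-0.24). With library totals alone these medians were -0.0084, -0.13 and -0.09. Of the 14 fast fibre genes, 1 was called lower (7.14%, against 1.03% of all genes): Myh1, the myosin heavy chain of type IIx fibres. It was at 8605, 5247 and 5524 CPM in WT and 3190, 3152 and 3638 in KO (-0.96 ± 0.19, adjusted p = 0.033). Its groups did not overlap, with WT 1 highest, and it was called in 3 of the 6 fits without 1 library. Myh4, of type IIb fibres, was at 36469 to 51453 CPM in WT and 35855 to 49020 in KO (-0.10 ± 0.19). None of 16 slow fibre genes was called by edgeR or DESeq2 or had an unadjusted p under 0.05, and Myh7, the slow myosin, ranged from 563 to 2320 CPM among WT and from 340 to 1500 among KO libraries (-0.47 ± 0.55). Of 22 genes of excitation-contraction coupling, 1 was called lower (4.55%, against 1.03% of all genes): Kcnj2, the inward rectifier channel that sets the resting potential. It fell from 127, 105 and 88.3 CPM to 56.1, 63.7 and 68.1 (-0.77 ± 0.14, adjusted p = 0.025). DESeq2 called 4 of the 22 lower, and 8 had an unadjusted p under 0.05 in edgeR. In 8 of the 22 the KO libraries were all below the WT libraries, against 15.1% of all genes. edgeR called no gene among 17 of the neuromuscular junction and denervation, 18 of myogenesis, 19 of glucocorticoid response and atrophy, 37 proteasome subunits or 49 splicing regulators, where 5, 2, 5, 9 and 6 had an unadjusted p under 0.05. Of all 12688 genes, 3281 had an unadjusted p under 0.05. DESeq2 called none of the first 2 lists, 1 higher and 3 lower of the atrophy genes, 1 proteasome subunit lower and 1 splicing regulator higher. The acetylcholine receptor genes Chrnb1 and Chrna1 had values of 0.39 ± 0.10 and -0.39 ± 0.11 (adjusted p = 0.065 and 0.069).

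Single genes were called in several other groups, beside 3.0% of all genes called higher and 1.03% lower. Most of these calls were lost in most of the 6 fits without 1 library. Irs1, Ppara and Hsp90b1 were called in 0 of those fits, Nr1d1, Stat2, Ifi27l2a, Aplnr and Cxcl14 in 1, Pik3r1 and Chac1 in 2, Hes1 in 3, Pdia4 in 4 and Bhlhe40 in 6. In insulin and mTOR signalling, Irs1, the insulin receptor substrate, was at 113, 120 and 116 CPM in WT and 163, 206 and 146 in KO (0.56 ± 0.13, adjusted p = 0.047), and Pik3r1, the regulatory subunit of PI3-kinase, rose by 0.53 ± 0.11, 2 of 27 tested. In the unfolded protein response, the endoplasmic reticulum chaperones Pdia4 and Hsp90b1 rose by 0.74 ± 0.11 and 0.42 ± 0.09. Chac1, a glutathione-degrading enzyme, fell from 91.6, 21.8 and 42.5 CPM to 13.4, 16.0 and 14.5 (-1.83 ± 0.42, adjusted p = 0.045), with WT 1 as its highest library. Ppara, the nuclear receptor of fatty acid use, rose by 0.56 ± 0.13 as 1 of 27 genes in its group (3.70%), a share close to that of all genes. The interferon-stimulated genes Ifi27l2a and Stat2 rose by 0.89 ± 0.19 and 0.78 ± 0.18, 2 of 18 tested. The clock genes Nr1d1 and Bhlhe40 were the 2 of 19 called, with Nr1d1 at 210, 143 and 182 CPM in WT and 89.3, 71.4 and 127 in KO (-0.89 ± 0.21, adjusted p = 0.047). Among 21 vascular genes, Aplnr, the apelin receptor, rose by 1.14 ± 0.26 and Hes1, a Notch target, fell by 1.22 ± 0.25. Cxcl14, a chemokine of stromal cells, rose by 0.59 ± 0.14.

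Genotype effects in muscle were compared with those in liver and testis by an interaction term. Of 11216 genes tested against liver, 30 (0.267%) had effects that differed. Liver had 49 of its own 11928 genes called (0.411%), and 10 genes were called in both tissues, all with the same sign. They were 2.46% of the 407 muscle calls tested in liver and 25.6% of the 39 liver calls tested in muscle. Eno1b was at 191, 161 and 93.7 CPM in WT liver and 2.48, 1.27 and 2.13 in KO liver (-6.23 ± 0.35, adjusted p = 0.00028), and the difference from muscle was -0.44 ± 0.57. Tmem254a, a membrane protein gene with near-identical copies, rose in both, by 2.2 ± 0.30 in muscle and 1.76 ± 0.16 in liver. Plac9b rose by 1.64 ± 0.26 in liver, and Wdfy1, Eepd1, Gm12338, Csrnp1 and Cyr61 fell in both. The immediate early genes had a median log2 fold change of -2.02 in liver (all liver genes -0.0037), with 3 of 26 called lower and none higher. Of all 11928 liver genes, 29 were called lower. In testis the median was -0.20 (all testis genes -0.0054), with 3 of 28 called lower, as were 352 of all 15465 genes. In liver too, WT 1 was the lowest WT library for 24 of 26 immediate early genes (36.8% of all liver genes), whereas in testis it was so for 12 of 28 (36.2% of all testis genes). In liver, Egr1 stood at 7.49 CPM in WT 1 against 1160 and 1263 in WT 2 and WT 3, and at 137, 44.5 and 11.8 in KO. Whether libraries of 1 number in different tissues share an animal is not given.

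Against testis, 931 of 12071 genes (7.71%) had effects that differed from those in muscle. Testis had 661 of its own 15465 genes called (4.27%), and 28 genes were called in both tissues, of which 7 had the same sign. Eno1b was at 50.01, 46.2 and 51.4 CPM in WT testis and 55.0, 48.1 and 45.2 in KO testis, overlapping ranges, and its effect differed from that in muscle by -6.72 ± 0.33 (adjusted p = 7.5e-09). Egr1 was at 3.45 to 5.56 CPM in all testis libraries, and its effect differed by -3.97 ± 0.72 (adjusted p = 0.0071). Of the matrix genes, 15 of 29 tested had an effect that differed between muscle and testis and 0 of 27 between muscle and liver. In the liver comparison, 15 of the 27 had an unadjusted p under 0.05, as had 1619 of all 11216 genes. In liver itself the median of the 27 was 0.18 and edgeR called none, with 4 at an unadjusted p under 0.05.

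Junction reads gave few splicing differences between the 2 sets of 3 replicates in the muscle tables. The headers do not say which genotype is set 1, so directions are given by set. An exon's inclusion is the length-normalised share of junction reads that include it, and an event was called at an adjusted p under 0.05 and a difference of at least 10 percentage points. Of 11009 skipped exons tested, 19 (0.173%) in 14 genes were called, 11 with higher and 8 with lower inclusion in set 1, and 5 of them were called in all 6 fits without 1 replicate. The authors' deposited table calls 215 of its 15777 skipped exons (1.36%) at the same thresholds, 18 of the 19 among them. Of 357 alternative donor sites 1 (0.28%) was called, of 1649 mutually exclusive pairs 5 (0.303%), of 543 acceptor sites 0 (0.0%) and of 62 retained introns 0 (0.0%). With the quasi-binomial test the unadjusted p was under 0.05 for 30 of those acceptor sites and 3 of those introns, and the authors' deposited tables call 30 (2.79% of those listed) and 6 (4.05%). They call 44 donor sites (5.47%) and 33 exclusive pairs (1.64%).

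The exons with the smallest p-values lie in Neb, which encodes nebulin, the ruler of the thin filament, and in the related Nrap. They and the Rapgef1 exons are printed because they carry the called differences, in the direction of transcription and taken from GENCODE M21 transcripts on GRCm38.
Neb chr2:52151364-52151456, minus strand: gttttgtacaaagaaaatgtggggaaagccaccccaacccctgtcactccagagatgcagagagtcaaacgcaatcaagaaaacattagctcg
Neb chr2:52159477-52159569, minus strand: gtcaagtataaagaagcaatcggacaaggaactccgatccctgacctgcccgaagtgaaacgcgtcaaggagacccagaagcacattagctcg
Neb chr2:52161371-52161475, minus strand: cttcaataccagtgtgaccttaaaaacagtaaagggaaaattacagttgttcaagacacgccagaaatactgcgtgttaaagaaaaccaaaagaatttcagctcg
Nrap chr19:56355482-56355586, minus strand: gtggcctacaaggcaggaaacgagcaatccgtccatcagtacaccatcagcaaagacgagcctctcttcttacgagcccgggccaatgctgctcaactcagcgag
Rapgef1 chr2:29710153-29710308, plus strand: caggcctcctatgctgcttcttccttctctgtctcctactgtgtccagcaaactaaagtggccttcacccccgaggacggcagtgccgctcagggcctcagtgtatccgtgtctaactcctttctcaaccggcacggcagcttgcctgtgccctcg
Rapgef1 chr2:29719593-29719850, plus strand: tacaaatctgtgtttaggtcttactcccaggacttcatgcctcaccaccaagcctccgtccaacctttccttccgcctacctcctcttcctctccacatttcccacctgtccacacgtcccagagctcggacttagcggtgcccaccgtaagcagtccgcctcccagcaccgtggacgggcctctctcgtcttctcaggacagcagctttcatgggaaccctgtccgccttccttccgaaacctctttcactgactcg
All 6 are annotated exons with lengths of 93, 93, 105, 105, 156 and 258 bases, each a multiple of 3. The 93-base Neb exons shown were 60.2% identical to each other, and the first of them was 87.1% identical to another Neb exon of its length.

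The 3 Neb exons shown lie between the same flanking exons and share their junction reads, so they are not independent events. The exon at 52159477 was included at 98.9%, 97.6% and 99.0% in set 1 and at 73.0%, 84.5% and 78.9% in set 2, a difference of 19.7 points (adjusted p = 1.0e-12). The exon at 52151364 differed by 18.2 points and that at 52161371 by 13. In all 3, set 1 replicates lay at 97.2% or more and set 2 replicates at 88.1% or less. The Nrap exon was fully included in each set 1 replicate and at 75.1%, 89.1% and 84.7% in set 2 (17.0 points, adjusted p = 2.8e-08). At the gene level Neb and Nrap were not called, with log2 fold changes of -0.07 ± 0.21 and -0.32 ± 0.20. Rapgef1 encodes an exchange factor for the GTPase Rap1. Its 156-base exon was included at 37.0%, 34.3% and 29.1% in set 1 and 59.7%, 60.4% and 68.0% in set 2 (29.2 points, adjusted p = 0.00090), and its 258-base exon at 38.5%, 38.2% and 36.4% against 70.9%, 61.7% and 65.7% (28.4 points, adjusted p = 0.00035). The sets did not overlap in either, and both exons again share flanking junctions.

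**Figure D5:**
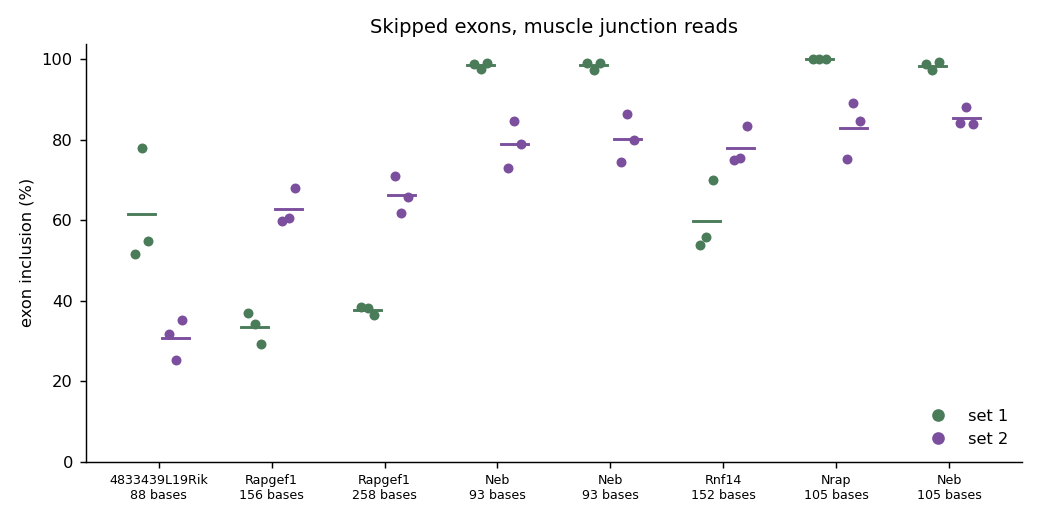
Inclusion (percent of length-normalised junction reads) of 8 called skipped exons in the 3 replicates of each set, with bars at set means. The 3 Neb exons and the Nrap exon are near complete inclusion in set 1 and lower in set 2, whereas both Rapgef1 exons are included more in set 2.

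An exon of 4833439L19Rik (88 bases) was included at 51.5%, 78.0% and 54.8% in set 1 and 31.7%, 25.4% and 35.1% in set 2, and an exon of Rnf14 (152 bases) at 53.8%, 55.7% and 70.1% against 74.9%, 75.3% and 83.3%. These were called in 2 and 1 of the 6 fits without 1 replicate. The called donor site, in Ube2j2, which encodes a ubiquitin-conjugating enzyme of the endoplasmic reticulum, was used at 55.4%, 48.1% and 55.3% in set 1 and 17.4%, 7.78% and 24.8% in set 2 (36.3 points, adjusted p = 3.5e-05), and it was called in all 6 fits without 1 replicate. Among mutually exclusive exons, a pair in Dusp13, a muscle phosphatase gene, differed by 19.1 points and a pair in Sdha, the succinate dehydrogenase subunit, by 12.8 points, each called in all 6 fits. Genes known as targets of splicing factors of muscle gave 473 tested skipped exons in 42 genes, of which 5 were called (1.06%, against 0.173% of all skipped exons, and all in Neb and Nrap), and their median difference was 0.38 points against 0.99 for all skipped exons tested.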

How the data were processed

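RNA sequencing of muscle from 3 WT and 3 Fmr1 KO samples was analysed from the deposited tables, with 3 and 3 libraries each of liver and testis for comparison. The genes and lists were chosen with earlier results of these data known. Whole-number gene counts and TPM values were deposited per library, with the authors' log2 fold changes and adjusted p-values. The submitters' processing notes name CASAVA, FastQC 0.11.8, Trimmomatic 0.39, Bowtie2 2.3.5, STAR 2.6.1, RSEM 1.3.1, DESeq2 1.16.1 and the builds GRCm38 and mm10, without roles. The splicing tables have the columns of rMATS junction-count output, per the file headers, with junction reads, a false discovery rate (the authors' p-value adjusted over events) and an inclusion difference, a score between the sets. No aligner, version or annotation of those tables is given in the sources used here. The muscle table holds 4 columns of unlisted samples, which were not used.

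Counts were fitted with edgeR 4.0.16 (filterByExpr, TMM factors, glmQLFTest) in R 4.3.3, with Benjamini-Hochberg adjustment over all genes tested and a call at 0.05. Interactions with liver and testis were fitted in the same way over 12 libraries each. Alternatives were DESeq2 1.42.0, limma 3.58.1 voom with quality weights, other scalings and filters, a replicate block and leaving out each library. Genes were annotated with GENCODE M21 (GRCm38). Total counts of 13934559 to 15386794 limit precision at low levels.

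Inclusion and skipping reads were tested with a quasi-binomial model and a moderated dispersion, for events whose replicates averaged 20 or more junction reads in each set. The form of the dispersion prior was not settled beforehand: 3 forms were run on the muscle tables and their calls seen, and the form used (a trend over total reads, with at most 50 prior degrees of freedom) was then chosen on simulated reads. On simulated reads with a large spread between replicates, it missed many of the changed events. Both kinds of script were tested on simulated data.

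The genes named were chosen from Fmr1, Fxr1 and Fxr2, the 12 largest rises and 12 largest falls among called genes with a mean of at least 5 CPM and no overlap, the genes called in every fit, the leading members of 23 lists, and leading genes of the tissue comparisons. Further members of those lists, marker genes, Hspa8, Myh4, Myh7, Nr4a1, Thbs1, Neb, Nrap, Dynlt1a and Dynlt1f, and the called genes near Fmr1 were named after their values were seen. A gene and an exon that these rules would name are not reported here.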

Additional observations from a re-analysis of the deposited data

Results flagged for a closer look

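Genotype effects (KO minus WT, log2) that differed between muscle and another tissue by edgeR's interaction test were marked for a closer look. Against liver, Adora1 was higher in muscle by 3.10 ± 0.45 (adjusted p = 0.013), from a rise of 2.74 in muscle and -0.34 in liver. Meg3, an imprinted noncoding RNA, differed by 1.85 ± 0.23 and Fgfr3, a growth factor receptor, by 1.80 ± 0.25. Iqgap2 differed by -2.26 ± 0.25, with liver values of 200, 270 and 335 CPM in WT and 332, 360 and 347 in KO.

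Against testis, Eno1b differed by -6.72, Gm13251 by -3.05, Wdfy1 by -1.39, Dynlt1b by -1.30 and Immp1l by -0.76. Wdfy1, Gm13251 and Immp1l were called in both tissues with opposite signs: Wdfy1 at -1.06 in muscle and 0.31 in testis, Gm13251 at -2.59 and 0.44, and Immp1l at -0.41 and 0.34. Unc5a differed by 2.46, Plac9b by 2.02, Fam101b by 1.98, Slc7a8 by 1.35 and C7 by 0.99. Fam101b, Slc7a8 and C7 were higher in KO muscle (0.75, 0.83 and 0.62) and lower in KO testis (-1.24, -0.53 and -0.39). Fmr1 differed by 1.32, its fall being smaller in muscle.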

How the results depend on the processing

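Muscle genes called numbered 512 in the fit reported; DESeq2 called 1095, the replicate block 31, a log2 fold change of at least 1 164, an adjusted p under 0.01 25, and fits without 1 library 18 to 559. Replicate numbers did not pair the libraries (correlations of same-numbered deviations -0.14, -0.11 and -0.053, and no library correlated best with its own number), so the block result says only that it left 20 rises and 11 falls. Effects that differed from liver were 30, 116 by voom and 6 to 289 without 1 library (289 without liver WT 1); those that differed from testis were 931, and 277 to 1385 without 1 library. The replicate block gave 21 and 681. Of 73 named genes called, 73 were kept by DESeq2, 22 by the block, 18 without KO 3 and 57 without WT 1, and none changed sign under any alternative run. Skipped exons called were 19, 215 by the authors' deposited false discovery rate, 36 with no minimum difference, 8 at a minimum of 0.2, and 10 to 22 without 1 replicate. Other forms of the dispersion prior, added after the data were seen, gave 23 with a constant prior, 8 with a trend over the rarer form, and 30 and 26 without the limit on degrees of freedom (constant and total reads). The deposited rates called 30 acceptor sites against 0 here, 44 donor sites against 1, 33 exclusive pairs against 5 and 6 introns against 0. Donor sites were 3 with total reads and no limit and 1 to 2 without 1 replicate; exclusive pairs were 0 at a minimum of 0.2 and 3 to 10 without 1 replicate. The cause of these shifts was not tested. Depth limits genes near 1 CPM and events near 20 reads.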
